A study of Drosophila melanogaster with 6 samples.

Results

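The Enhancer of split complex is a row of Notch target genes on the right arm of the third chromosome of *Drosophila melanogaster*. Its members were taken as every gene whose annotated symbol starts with E(spl), which gave 11 of the 17684 annotated genes on 6 chromosome arms, all of them on 3R at 25997621 to 26041008 (dm6; chr3R:25997621-26041008), a span of 43.4 kb. Another 37 genes lie wholly within 100 kb on either side and serve as context, among them *gro* and also *Kaz-m1*, which carries an E(spl) name as a synonym and lies inside the complex. The data are Hi-C, which reads out the contacts of chromosomal DNA by ligating fragments held together in fixed nuclei. The larvae were third-instar yw;+;+ animals, and their eye discs and antennal discs, the primordia of the adult compound eye and antenna, had been cut apart by hand. The files give topologically associating domains (TADs), stretches of chromosome that contact themselves more than their surroundings, for 3 libraries of the eye disc (numbered 1, 2 and 3) and 2 of the antennal disc (numbered 2 and 3), every one made with 125 discs, and for the pooled replicates of each disc. Antennal disc library 1 was not analysed here, though the pooled antennal list is labelled as drawn from all replicates. Whole discs hold many cell types, and nothing in these files measures their purity or the expression of any gene.

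Notch signalling lets neighbouring cells take different fates. When a ligand engages Notch, its cleaved intracellular part joins the DNA-binding protein Su(H) and switches on target genes, of which those of the E(spl) complex are the best known. Of the members here, 7 encode basic helix-loop-helix (bHLH) repressors with an Orange domain, which recruit the corepressor Groucho and silence proneural genes, and 4 encode small proteins of the Bearded family, a family known for inhibiting the ubiquitin ligase Neuralized, itself needed for ligand activity. In the eye disc, these genes are known for restricting the founder photoreceptor R8 to single cells, and in the antennal disc for spacing sensory organ precursors.

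In both discs the complex lay whole and undivided inside 1 TAD. The number of borders between its outermost gene ends was 0 in eye disc libraries 1, 2 and 3 and 0 in antennal disc libraries 2 and 3, and the same TAD held 11 of 11 members in each of the 5 libraries and in both pooled lists. No library divided the complex. A lack of borders is not rare over a stretch this short. Of 5658 stretches of equal length stepped along 3R in bins of 5 kb, 34.6% had no border inside in any of the 5 libraries, and 36.8% of those on all arms with calls in every library did.

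The domain itself varied by 1 bin between the discs and not within them. In eye disc libraries 1, 2 and 3 the host TAD was chr3R:25975001-26060000, 85 kb wide in each. In antennal disc libraries 2 and 3 it was chr3R:25980001-26060000, 80 kb wide in each. The pooled lists gave the same intervals as the libraries of their disc. The width was therefore 85 ± 0 kb for eye discs (SD, n = 3) and 80 ± 0 kb for antennal discs (SD, n = 2), a difference of 5 kb, or 1 bin, the smallest step the files can show. The libraries of each disc had equal values and the discs did not overlap. The two-sided exact permutation test, with the smaller tail doubled, gave p = 0.2 (0.467 after Benjamini-Hochberg adjustment over the 7 measures tested on the complex). With the tail doubled, 0.2 is the smallest p that 3 against 2 libraries allow.

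**Figure D1:**
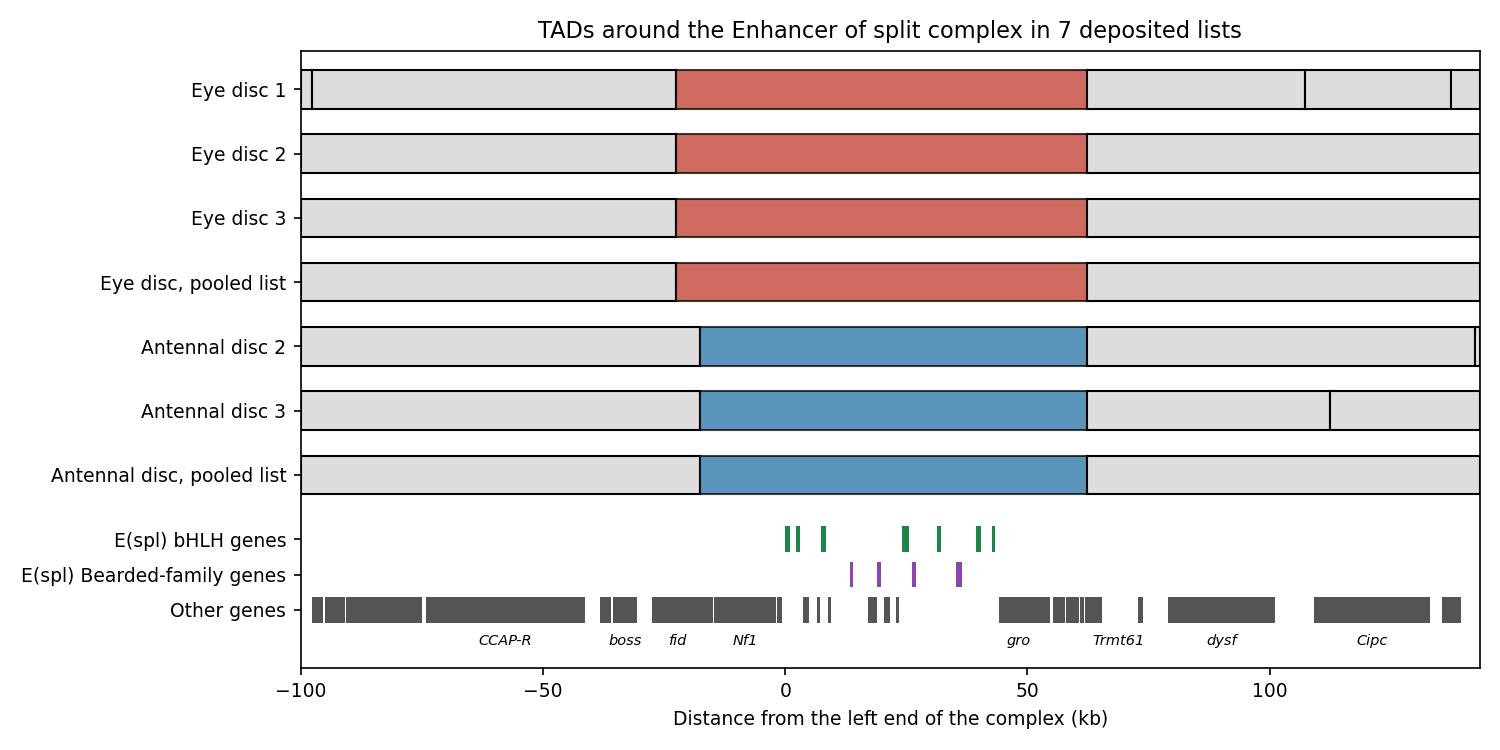
TADs in the 7 deposited lists, 1 row each, against the distance in kb from the left end of the complex; coloured boxes are the TAD that holds the E(spl) genes (red, eye disc; blue, antennal disc), grey boxes are other TADs cut at the edge of the plot, and the lower rows show genes. The coloured box ends at the same place in every row and starts 5 kb farther left in the 4 eye disc rows than in the 3 antennal disc rows.

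The whole difference lay at the left border. From the left end of *E(spl)mdelta-HLH*, the outermost bHLH gene, to that border was 22.6 kb in each of the 3 eye disc libraries and 17.6 kb in each of the 2 antennal disc libraries (exact permutation p = 0.2). Both positions fall inside the gene *fid* (3R, 25970080 to 25982736). The eye disc border lies 4.92 kb from its low-coordinate end, and the antennal disc border lies 9.92 kb from it. The annotation used gives gene spans without exons, so no exon or intron can be named. The right border, 19.0 kb beyond the end of *E(spl)m8-HLH*, was at 26060000 in all 5 libraries and both pooled lists. As called, it falls in *Trmt61* (3R, 26059496 to 26061293), whose product is a tRNA methyltransferase subunit. Borders are placed only to a bin of 5 kb, which is longer than *Trmt61*. The right border could thus lie in a neighbouring gene, such as *RpL34a* at 1.16 kb. The positions within *fid*, and within other genes named below as holding a border, carry the same limit.

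Among borders shared by all libraries, those fixed to the bin in every library, as on the right, outnumbered those that followed the disc, as on the left. Over the arms with calls in every library, 456 border sites had exactly 1 border per library in a cluster linked by steps of at most 1 bin. Of these, 87 (19.1%) had 1 position in all 5 libraries. At 28 (6.14%) the positions of the discs did not overlap, and 17 of all sites (3.73%) had 1 position in the eye disc libraries and another in the antennal disc libraries. The linking rule allowed those 17 no step above 1 bin, and at each the step was 5 kb. Larger shifts between positions fixed within each disc could not be counted. Among all 28 sites without overlap, the disc means lay up to 12.5 kb apart. At 10 of the 17 (2.19% of sites) the eye disc position had the lower coordinate, as at *fid*. Fewer libraries must coincide once any is left out, and the 3.73% then became between 5.82% (without eye disc library 3) and 12.5% (without antennal disc library 2), with 9.81%, 7.33% and 10.8% without eye disc library 1, eye disc library 2 and antennal disc library 3. The share with 1 position in every library became 29.9% without eye disc library 1.

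**Figure D2:**
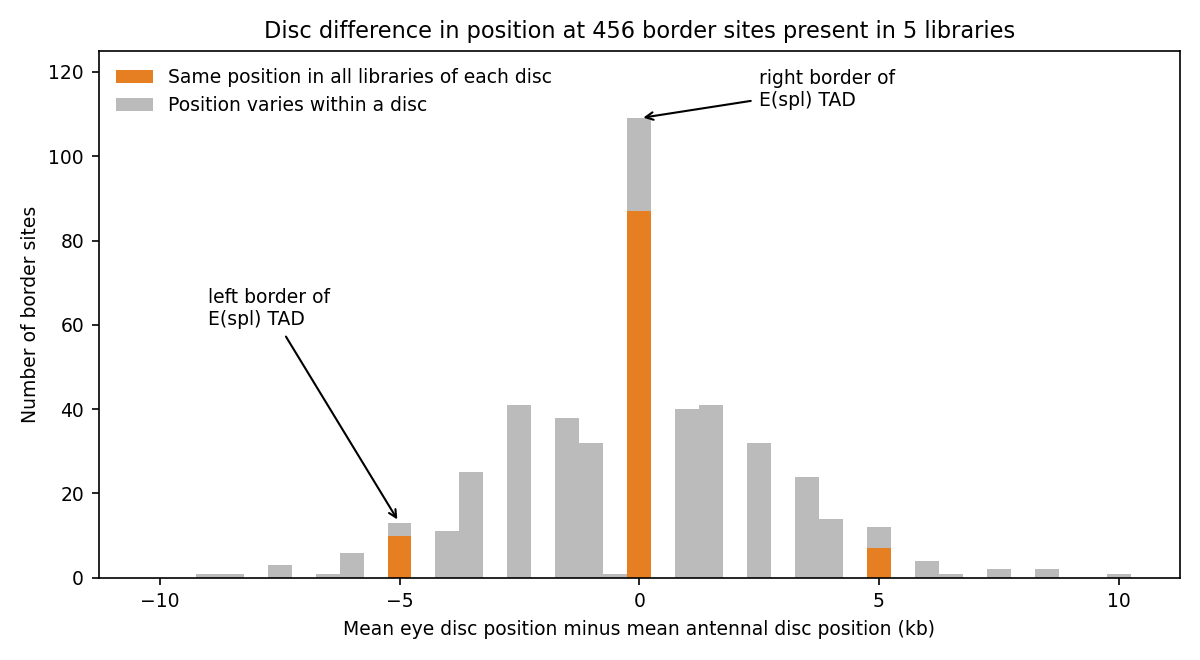
Number of border sites by the mean eye disc position minus the mean antennal disc position in kb, for the 456 sites with 1 border in each of the 5 libraries. Orange marks sites with the same position in all libraries of each disc, grey the others. A site at 12.5 kb lies beyond the plotted range. The right border of the E(spl) TAD is among the 87 orange sites at 0 kb, and the left border is among the 10 orange sites at -5 kb.

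Few genes kept their domain this well. A gene was counted as keeping its domain when its whole span lay in a TAD whose borders each stayed within 1 bin over the 5 libraries. All 11 members met this, but they sit in 1 TAD and so amount to 1 observation. Of the 17570 genes on arms with calls in every library, 994 (5.66%) did so, and the share was 12.8% without eye disc library 1 and 10.3% without antennal disc library 3. Counted by TAD, between 7.41% (eye disc library 1) and 9.11% (eye disc library 2) of a library's TADs had a counterpart in the other 4 with both borders within 1 bin. The mean share of 8.22% became 15.7% without eye disc library 1 and 12.6% without antennal disc library 3. Only 10 TADs were identical in all 5 libraries. A further 4 were identical within each disc and 1 bin apart between discs, among them the E(spl) TAD, and each of these 4 moved at 1 border only.

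The complex filled 51.0% of the host TAD in eye disc libraries and 54.2% of it in antennal disc libraries. The members within 1 bin of a border in all 5 libraries numbered 0 of 11, near the 3.07% of all genes. A gene's distance was the mean over its ends of the distance to the nearest border. Where a border cuts a gene, this mean reflects the gene's length and is not a gap. No border cut a member in any library. The distances ran between 19.4 kb (*E(spl)m8-HLH*) and 42.0 kb (*E(spl)m2-BFM*) in each eye disc library, and between 18.1 kb (*E(spl)mdelta-HLH*) and 37.5 kb (*E(spl)m3-HLH*) in each antennal disc library. The median over members was 30.5 kb in each eye disc library and 26.5 kb in each antennal disc library (exact permutation p = 0.2), beside medians over all genes of 21.2, 24.2 and 26.1 kb in eye disc libraries 1, 2 and 3 and 23.1 and 21.5 kb in antennal disc libraries 2 and 3.

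The bHLH genes occupied both ends of the row. *E(spl)mdelta-HLH* lay 23.1 kb from the nearest border in each eye disc library and 18.1 kb in each antennal disc library. *E(spl)mgamma-HLH* lay at 25.3 kb in each eye disc library and 20.3 kb in each antennal disc library, and *E(spl)mbeta-HLH* at 30.5 kb in each eye disc library and 25.5 kb in each antennal disc library. These 3 genes, at the low-coordinate end, are nearest to the left border and take up its whole step of 5 kb. The other 4 are nearest to the right border and had 1 value in all 5 libraries. *E(spl)m3-HLH* lay at 37.5 kb, *E(spl)m5-HLH* at 30.7 kb, *E(spl)m7-HLH* at 22.5 kb and *E(spl)m8-HLH*, the gene whose dominant mutation gave the complex its name, at 19.4 kb.

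The Bearded-family members lay among the bHLH genes of the row, none of them at either end. *E(spl)malpha-BFM* was 36.2 kb from the nearest border in each eye disc library and 31.2 kb in each antennal disc library. *E(spl)m2-BFM* was 42.0 kb away in each eye disc library and 37.0 kb in each antennal disc library. In the eye disc it was almost midway, 41.5 kb from the left border and 42.5 kb from the right one. *E(spl)m4-BFM*, at 35.8 kb, and *E(spl)m6-BFM*, at 26.5 kb, had 1 value in all 5 libraries.

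**Figure D3:**
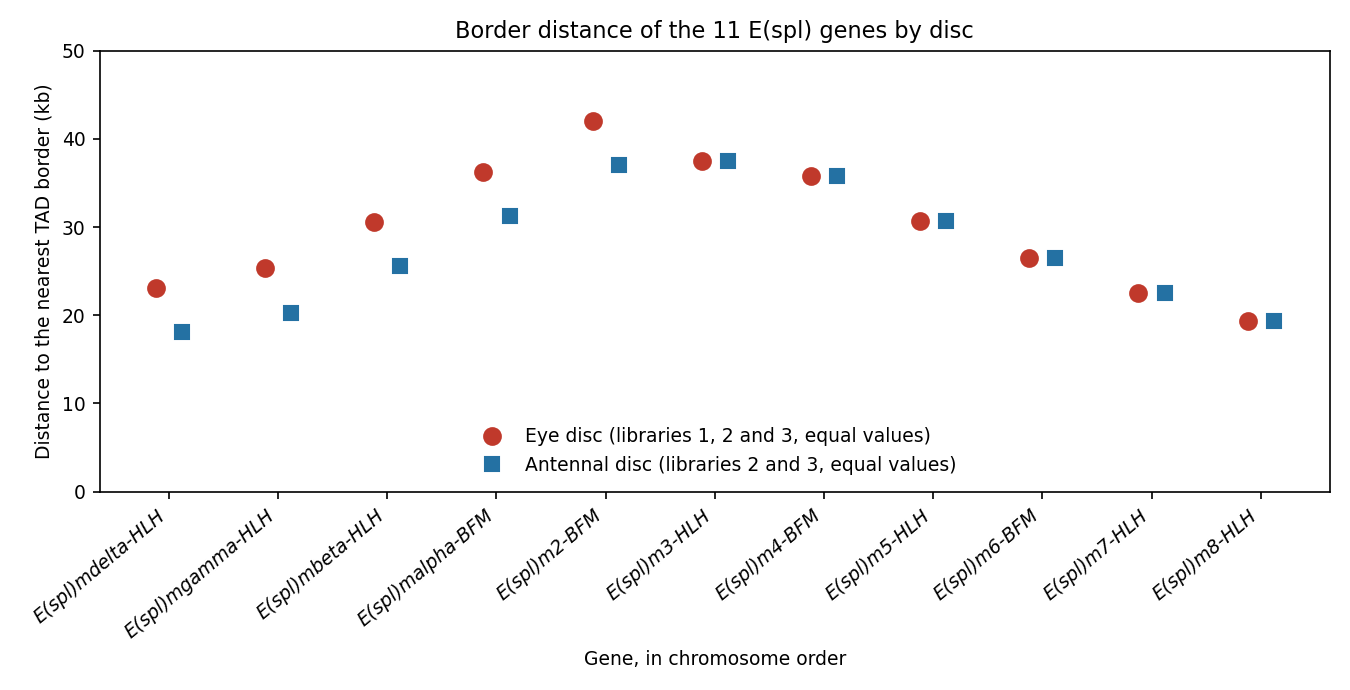
Distance in kb to the nearest TAD border for the 11 E(spl) genes in chromosome order; a red circle is the value shared by the 3 eye disc libraries and a blue square the value shared by the 2 antennal disc libraries. The left 5 genes are 5 kb farther from a border in the eye disc, and the right 6 have the same value in both discs.

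Counted by gene, 5 of the 11 members had a distance greater in every eye disc library than in every antennal disc library, and 0 the reverse. Over all genes the ranges of the discs were separate for 13.0%, with the eye disc farther for 7.73% and nearer for 5.29%; the share was 12.7% among protein-coding genes and 10.6% where the ranges had to lie at least 1 bin apart. These 5 values all follow from the 1 left border, so they are 1 observation and not 5, and no gene can pass a test with 3 against 2 libraries. Leaving out a library could not change the count of 5, since each member had equal values in the libraries of a disc. The share of all genes with separate ranges became 24.1%, 21.8% and 18.0% without eye disc library 1, 2 or 3 and 33.1% and 26.8% without antennal disc library 2 or 3.

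The domain also held 18 genes that are no members, the same number in each library, 29 genes in all and 23 of them protein-coding. That made it rich in genes. A TAD held a median of 11 to 13 genes over the 5 libraries, and between 9.18% (eye disc library 1) and 12.8% (eye disc library 3) of TADs held at least 29. Per 100 kb the host TAD held 34.1 genes in the eye disc libraries and 36.2 in the antennal disc libraries, beside medians over TADs of 11.6 to 12.5. Its width was not unusual, since 55.1% to 64.7% of TADs in a library were at least as wide.

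On the left of the row the domain held *Nf1*, which encodes the Ras regulator neurofibromin, and *CG43116*. *Nf1* was its outermost whole gene on that side, 14.4 kb from a border in each eye disc library and 9.37 kb in each antennal disc library. Within the row lay *Kaz-m1*, which encodes a Kazal-type protease inhibitor-like protein, and 6 long non-coding RNA genes. *Kaz-m1* lay 40.6 kb from a border in each eye disc library and 35.6 kb in each antennal disc library. On the right came *gro*, the gene for Groucho, which shared the members' TAD in 5 of 5 libraries and lay 14.2 kb from a border in each. A string of short housekeeping genes followed, among them the exocyst gene *Exo84* (9.01 kb), the ESCRT-III gene *Vps2* (6.53 kb) and the replication gene *Sld5* (3.90 kb). The ribosomal protein gene *RpL34a*, at 1.16 kb in each library, was the last whole gene before the right border.

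The border in *fid* set the complex apart from *boss* in every library. *boss* encodes Bride of sevenless, the R8 surface ligand that recruits photoreceptor R7, and lies 30.7 kb from the complex. It was in the neighbouring TAD, 10.5 kb from the border in each eye disc library and 15.5 kb in each antennal disc library. That TAD also held *CCAP-R*, the receptor gene for crustacean cardioactive peptide, which lay 21.1, 28.6 and 28.6 kb from a border in eye disc libraries 1, 2 and 3 and 31.1 kb in each antennal disc library. Its width was 75, 90 and 90 kb in eye disc libraries 1, 2 and 3 and 95 kb in each antennal disc library (exact permutation p = 0.2, a measure chosen after its values were seen). Eye disc libraries 2 and 3 differed from the antennal disc libraries only by the step in *fid*, so this is no separate observation. In eye disc library 1 the outer border also differed, at 25900000. In the pooled eye list it reached 285 kb, since that list lacked the border at 25885000 that began this TAD in eye disc libraries 2 and 3 and both antennal disc libraries.

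The TAD to the right of the shared border differed in width between libraries of 1 disc. It was 45, 205 and 205 kb wide in eye disc libraries 1, 2 and 3 and 80 and 50 kb in antennal disc libraries 2 and 3, so the discs overlapped (exact permutation p = 0.6, chosen after its values were seen). In the pooled lists it was 205 kb wide for the eye disc and 220 kb for the antennal disc, the antennal value lying above both antennal disc libraries. It held *dysf*, which encodes a bHLH-PAS transcription factor, whole in each of the 5 libraries. *Cipc*, a circadian clock gene homologue beside it, lay 3.10, 58.8 and 58.8 kb from a border in eye disc libraries 1, 2 and 3 and 21.2 kb in antennal disc library 2. In antennal disc library 3 a border at 26110000 fell inside *Cipc*, so its value of 11.9 kb there is not a gap. Eye disc library 1 thus departed from eye disc libraries 2 and 3 on both flanks, but not at either border of the E(spl) TAD. Over the whole window of 243.4 kb there were 5, 2 and 2 borders in eye disc libraries 1, 2 and 3 and 3 in each antennal disc library (exact permutation p = 1).

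Other Bearded-family genes lie together on 3L, and their host TAD varied between libraries of 1 disc. *BobA*, *Tom*, *Brd* and *Ocho* (chr3L:14945499-14976040, a span of 30.5 kb) were the 4 of 6 listed that matched a symbol. They shared 1 TAD in eye disc libraries 2 and 3 (215 and 210 kb wide) and antennal disc library 3 (180 kb), and in both pooled lists. A border fell between *BobA* and *Tom* at 14965000 in eye disc library 1, and inside *Tom* at 14970000 in antennal disc library 2. *Brd*, the founding gene of the family, lay 7.93, 42.1 and 42.1 kb from a border in eye disc libraries 1, 2 and 3 and 2.93 and 12.1 kb in antennal disc libraries 2 and 3, so the discs overlapped. *Ocho* was the 1 gene with separate ranges, at 10.4, 39.6 and 39.6 kb in the eye disc libraries and 5.44 and 9.56 kb in the antennal disc libraries, and *BobA* lay at 19.2, 69.2 and 69.2 kb in the eye disc libraries and at 24.2 and 39.2 kb in the antennal disc libraries. *Tom* lay at 4.82, 45.2 and 45.2 kb in the eye disc libraries and 0.481 and 15.2 kb in the antennal disc libraries. Of the 4, 0 kept their domain over the 5 libraries and 1 had separate ranges, beside 5.66% and 13.0% of all genes, so counts this small are near the background.

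Among relatives of the bHLH members elsewhere, 0 of the 5 matched of 6 listed kept their domain, near the 5.66% of all genes. A border fell inside *dpn*, a neural stem cell gene, in eye disc library 1, where its value was 1.68 kb. *dpn* lay 4.35 kb from a border in eye disc libraries 2 and 3 and in each antennal disc library. *Hey*, another Notch target, lay at 8.14, 13.1 and 13.1 kb in the eye disc libraries and at 11.9 and 16.9 kb in the antennal disc libraries, and the clock gene *cwo* at 8.75, 25.5 and 25.5 kb in the eye disc libraries and at 44.5 and 20.5 kb in the antennal disc libraries. *Sidpn* ranged over 14.2 to 19.2 kb in both discs, and *her* over 41.6 to 46.6 kb in the eye disc libraries against 41.6 and 6.56 kb in the antennal disc libraries. The count with separate ranges was 0 of 5, beside 13.0% of all genes.

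Of 19 matched Notch pathway genes, 3 kept their domain over the 5 libraries, beside 5.66% of all genes. They were *gro* in the E(spl) TAD, *Ser*, which encodes the Notch ligand Serrate, and *mib1*, which encodes a ubiquitin ligase for the ligands. *mib1* lay 40.8 kb from a border in each library. The receptor gene *N* lay close to a border, at 3.96, 6.32 and 6.32 kb in eye disc libraries 1, 2 and 3 and 6.32 kb in each antennal disc library. In eye disc library 1 a border fell inside *N*, so the value of 3.96 kb there is not a gap. A border fell inside *rumi*, whose product glucosylates Notch, in each of the 5 libraries. Its value of 0.792 kb in each thus reflects its length and is not a gap. At the other end *fng*, the gene of a glycosyltransferase that tunes ligand choice, lay at 75.7, 78.2 and 75.7 kb in the eye disc libraries and 97.3 and 78.2 kb in the antennal disc libraries, and the coactivator gene *mam* at 60.8 to 65.8 kb in all. *Su(H)*, the 1 gene with the eye disc farther in every library, lay at 38.6, 23.6 and 23.6 kb in the eye disc libraries and 13.6 and 18.6 kb in the antennal disc libraries. *numb*, whose product inhibits Notch, was the 1 with the eye disc nearer, at 36.6, 34.2 and 24.1 kb in the eye disc libraries and 39.2 kb in each antennal disc library. The list's median was 33.2, 28.8 and 33.2 kb in eye disc libraries 1, 2 and 3 and 20.1 and 18.6 kb in antennal disc libraries 2 and 3, although 17 of its 19 genes had overlapping ranges, and the 2 with separate ranges are near the 13.0% of all genes. *Su(H)* and *numb* fall outside the rule for named genes and were chosen after their values were seen, as were *Ser* and *mib1*.

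Of the list of proneural genes with *da* and *emc*, some of them known targets of the E(spl) repressors, 0 of 9 kept their domain, near the 5.66% of all genes. The achaete-scute genes *ac*, *sc*, *l(1)sc* and *ase* on X shared 1 TAD in eye disc libraries 2 and 3 (160 kb in each) and in antennal disc libraries 2 and 3 (195 and 170 kb). A border between *ac* and *sc* at 395000 divided them in eye disc library 1. *l(1)sc* lay at 15.3, 75.3 and 75.3 kb in eye disc libraries 1, 2 and 3 and 75.3 and 79.7 kb in antennal disc libraries 2 and 3, and *cato* at 12.0, 63.0 and 63.0 kb in the eye disc libraries and 68.0 and 63.0 kb in the antennal disc libraries. *emc*, an inhibitor of proneural proteins, lay at 3.55 kb in each eye disc library and in antennal disc library 2. A border fell inside *emc* in antennal disc library 3, where its value was 2.05 kb. *amos* lay at 1.53, 11.5 and 11.5 kb in the eye disc libraries and 11.5 kb in each antennal disc library. One gene of the 9, *da*, had separate ranges (13.0% of all genes did), at 39.3, 34.3 and 39.3 kb in the eye disc libraries and 19.3 and 17.4 kb in the antennal disc libraries; it too was chosen after its values were seen.

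**Figure D4:**
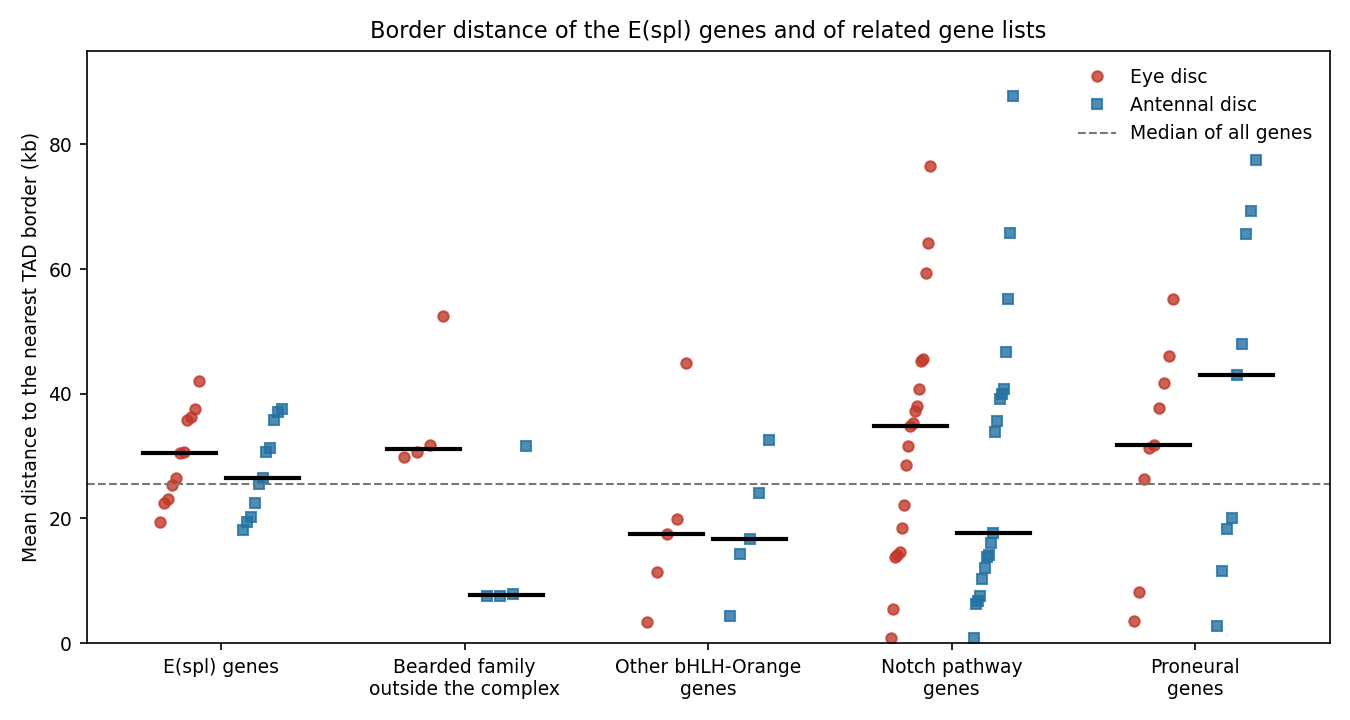
Mean distance in kb to the nearest TAD border for the E(spl) genes and 4 related lists; each point is a gene's mean over the 3 eye disc libraries (red circles) or the 2 antennal disc libraries (blue squares), black bars are list medians of those means, and the dashed line is the median of all genes (25.6 kb). The dashed line averages both discs, and by disc the median of all genes was 26.0 kb (eye) and 23.5 kb (antennal). The E(spl) genes have eye disc means of 19.4 to 42.0 kb and antennal disc means of 18.1 to 37.5 kb, and the Bearded-family genes outside the complex have eye disc means of 29.9 to 52.5 kb and antennal disc means of 7.50 to 31.7 kb.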

How the data were processed

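Reads were aligned to dm6 by Bowtie2 (version 2.3.4.2), per the submitters' processing notes. The program that called TADs and its bin size were not given in the sources used here. What the authors deposited are TAD starts and ends in bp, with no scores, contacts or depth; all are multiples of 5000, so the bin was taken as 5 kb. With depth unknown, no counting interval is given. Every TAD start and end counted as a border, an end and a following start within 1 bin of it being merged at their midpoint; where they adjoin, as at every border with a printed position, that is the last base of the left TAD. Gene spans are those of RefSeq for Release 6 (the dm6 assembly), matched by symbol; of the lists, *BobB*, *BobC*, *h*, *Dl*, *Dx* and *nct* found no match and are not analysed here. Libraries were compared by exact permutation over the 10 assignments to groups of 3 and 2, the smaller tail being doubled for a two-sided p. Genes named were all members, *gro*, the genes at pooled borders and at the edges of the host TAD, and of each list all genes up to 6 or the 2 nearest and 2 farthest; other window genes were chosen for description. Members and lists were chosen with earlier results of these data known. The computations were tested on simulated data. The software was Python 3.11.15 with scipy 1.17.1, pandas 2.3.3, numpy 2.4.6 and, for plots, matplotlib 3.10.9.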

Additional observations from a re-analysis of the deposited data

How the results depend on the processing

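Borders from TAD starts only, TAD ends only or adjoining TADs only, merging over 2 bins, leaving out TADs under 50 kb, adding *gro*, other gene positions, the pooled lists and leaving out each library turned no direction among 7 of the 8 results on the complex, the exception being the number of borders in the window; none of the 8 could reach significance with 3 against 2 libraries. The host TAD was 5 kb wider in the eye disc in 12 of 12 alternatives, and the count of members with separate ranges stayed at 5 in 16 of 16. The width was read from the TADs themselves, so the border definitions could not change it. Leaving out a library could change neither result, since the libraries of each disc had equal values. These tallies are thus no measure of robustness. The difference in the members' median distance ranged from 4.01 to 4.09 kb. The disc difference in borders in the window, 0, took either sign: it ranged from -1 (without eye disc library 1) to 0.5 (without eye disc library 2 or 3) when a library was left out, and was -0.33 without TADs under 50 kb. With a replicate block over numbers 2 and 3 the width difference was 5 kb and the window difference -1 (exact p of 0.5, the smallest that 2 pairs allow); no source says that a number marks a shared batch, and library 2 minus library 3 correlated between discs over 17570 genes with r = 0.0698. A step of 1 bin is the limit of resolution of these files, and no p below 0.2 was possible with the smaller tail doubled.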
